A study of Mus musculus with 24 samples.

Results

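Apoptotic cell clearance genes were followed here in thymocytes of irradiated mice: the receptors Mertk, Axl and Timd4, the bridging proteins Gas6 and Mfge8, the complement subunits C1qa, C1qb and C1qc, the scavenger receptor Cd36 and the cholesterol exporter Abca1. They were chosen by name, as the array probes whose accession belongs to these 10 genes, out of 21154 genes that accessions named on the array. Each member had 1 probe, and all 10 members were on the array. Thymocyte RNA of C57BL/6J mice carried the Cy5 dye and a pooled mouse reference RNA the Cy3 dye on each of 24 arrays, without dye swaps, so every value is log2(Cy5/Cy3), the level in thymocytes relative to that reference. The control mice were not irradiated. The low dose mice received 0.075 Gy of X-rays, the high dose mice 1.75 Gy of γ-rays, and the RAR (radio-adaptive response) mice received the same low dose and then, 6 h later, the same high dose. Each of the 4 treatments was applied to 3 females and 3 males, aged 4 to 5 weeks, with 1 array a mouse, so a treatment is compared over 6 arrays. The time between the last irradiation and sampling is not given in the sources used here. Thymi were dispersed mechanically and passed through a 40 µm strainer, with no sort of thymocytes from other thymic cells described, so each sample can hold RNA of the cells that engulf as well as of the cells that die.

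Thymocytes that fail selection or are irradiated die by apoptosis, and thymic macrophages take up the corpses. A dying cell exposes phosphatidylserine, which TIM-4 (Timd4) binds directly. GAS6 bridges it to the receptor tyrosine kinases MERTK and AXL, protein S bridges it to MERTK, and MFG-E8 bridges it to integrins. C1q, built of the chains A, B and C encoded by C1qa, C1qb and C1qc, coats dying cells, CD36 binds oxidized lipids and thrombospondin on them, and ABCA1 exports the cholesterol that a phagocyte takes in with the corpse. Macrophages are the main source of C1q and carry TIM-4 and MERTK.

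Mertk, Axl, Cd36 and C1qb were at least 1.5-fold higher in RAR thymocytes than at either single dose, at adjusted p under 0.05. The promoter windows of these 4 genes are therefore shown. The windows, from 250 bases before to 50 bases after a RefSeq start site on GRCm38.p6, are written 5′ to 3′ on the gene's strand, with capitals marking the motif letters listed after them.
Mertk, chr2:128698665-128698964, plus strand: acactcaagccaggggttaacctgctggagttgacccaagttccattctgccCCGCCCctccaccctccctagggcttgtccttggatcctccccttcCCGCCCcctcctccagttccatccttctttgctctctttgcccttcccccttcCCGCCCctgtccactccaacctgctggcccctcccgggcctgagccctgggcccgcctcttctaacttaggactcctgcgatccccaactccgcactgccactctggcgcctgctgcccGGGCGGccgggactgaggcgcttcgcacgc
Axl, chr7:25788684-25788983, minus strand: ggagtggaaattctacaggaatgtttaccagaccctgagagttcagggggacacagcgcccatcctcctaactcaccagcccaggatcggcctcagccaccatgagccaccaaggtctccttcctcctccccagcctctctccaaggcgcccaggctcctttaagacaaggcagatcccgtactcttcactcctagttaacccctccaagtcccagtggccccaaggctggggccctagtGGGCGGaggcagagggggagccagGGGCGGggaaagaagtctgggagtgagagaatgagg
Cd36, chr5:17835847-17836146, minus strand: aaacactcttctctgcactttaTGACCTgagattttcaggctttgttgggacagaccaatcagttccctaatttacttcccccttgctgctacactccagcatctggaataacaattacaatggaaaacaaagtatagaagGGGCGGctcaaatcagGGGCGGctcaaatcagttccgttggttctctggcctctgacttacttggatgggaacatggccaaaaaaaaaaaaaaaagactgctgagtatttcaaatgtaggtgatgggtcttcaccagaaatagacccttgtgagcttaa
C1qb, chr4:136886151-136886450, minus strand: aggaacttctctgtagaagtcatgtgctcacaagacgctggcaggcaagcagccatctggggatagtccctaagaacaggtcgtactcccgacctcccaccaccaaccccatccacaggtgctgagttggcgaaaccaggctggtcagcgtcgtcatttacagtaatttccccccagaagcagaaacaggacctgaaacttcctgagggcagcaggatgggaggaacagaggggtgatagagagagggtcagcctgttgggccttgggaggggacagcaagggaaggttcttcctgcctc
The motifs searched on both strands were the GC box (GGGCGG), the AP-1 site (TGANTCA), a PU.1 site (GAGGAAGT), the nuclear receptor half-site (AGGTCA) and the repeats of that half-site with a spacer of 1 base (DR1) or 4 bases (DR4), which contain it. The Cd36 window lies at a start inside the gene, whose annotated span reaches 17888959 on its 5′ side, and other starts of Cd36 were not searched. The GC box stood 4 times in the Mertk window, 2 times in the Axl window and 2 times in the Cd36 window, and 35.7% of 32851 RefSeq windows of the same length held it at least once. The nuclear receptor half-site stood once in the Cd36 window, at position -228 from the start, against 16.3% of all windows. None of the motifs matched in the C1qb window, and neither AP-1 (7.81% of all windows), PU.1 (3.2%), DR1 (0.0396%) nor DR4 (0.0152%) matched in these 4 windows. A window was given for 9 of the 10 members. Of the other 5, the windows of Gas6, Mfge8, Abca1 and C1qc held the GC box, those of C1qc and Timd4 held the half-site, and that of C1qc alone held the PU.1 letters. A match of letters is a description of the window and not a binding site.

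The Cy5 signal was well above background, by the scanner software's own flag, for 49.3% to 62.8% of probes on the 21 arrays outside the female RAR group, and for 53.9%, 71.8% and 34.7% of probes on the female RAR arrays of replicates 1, 2 and 3. Arrays of 1 group correlated with r between 0.802 and 0.914 over all probes, with the lowest value in the female RAR group. The results below were therefore also computed without female RAR replicates 2 and 3. All 11 markers of double-positive thymocytes were well above background on at least 12 arrays.

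A difference was called when its adjusted p in limma was under 0.05 and its size at least 1.5-fold, over 55681 probes and over both sexes together. Against control, 2 members rose in RAR thymocytes (Mertk and Cd36), where 12.4% of all probes rose, and 1 fell (Timd4, whose reference signal was not measured), where 13.7% fell, so that 3 of 10 members were called against 26% of all probes. The high dose alone raised 0 members (5.89% of probes) and lowered 1, C1qb (5.63%), with 11.5% of all probes called. The low dose alone raised 0 (5.09%) and lowered 0 (4.83%), with 9.92% called. RAR thymocytes differed from high dose thymocytes in 5 members: Mertk, Axl, Cd36 and C1qb were higher (4 of 10, against 5.29% of probes) and Timd4 lower (4.23%), with 9.52% of all probes called in either direction. They differed from low dose thymocytes in 4 members, again Mertk, Axl, Cd36 and C1qb and each higher (4.78% of probes), with none lower (4.29%) and 9.07% called in all. At an adjusted p under 0.05 without the size limit, 4 members passed at the high dose (23.9% of probes), 3 at the low dose (21.8%), 7 in RAR against control (38.4%), 6 against high dose (21.8%) and 5 against low dose (21.3%). The values of the 6 and 6 arrays did not overlap for 4 members at the high dose (14.4% of probes), 1 at the low dose (13.1%), 3 in RAR against control (24.9%), 4 against high dose (10.1%) and 3 against low dose (10.4%). The median log2 difference over the members was 0.36 for RAR against control, 0.37 for RAR against high dose and 0.27 for RAR against low dose, and -0.029, -0.022 and -0.013 over all probes. It was -0.16 for the high dose and -0.10 for the low dose against control, and -0.016 and -0.0145 over all probes. With the Cy5 signal alone, scaled to each array's 75th percentile, the median of all probes moved by 0.32 for RAR against either single dose, and Mertk, Axl, Cd36 and C1qb stayed called. Relative to that median they were higher in RAR than at the high dose by 1.20, 0.62, 1.85 and 0.77, in this order, and than at the low dose by 1.34, 0.50, 1.59 and 0.64, so that Axl was short of 1.5-fold in the latter. The 5 comparisons share samples, the RAR arrays or the control arrays, and are not independent of each other. In these bulk samples fewer cells of a type and less RNA per cell cannot be told apart.

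**Figure D1:**
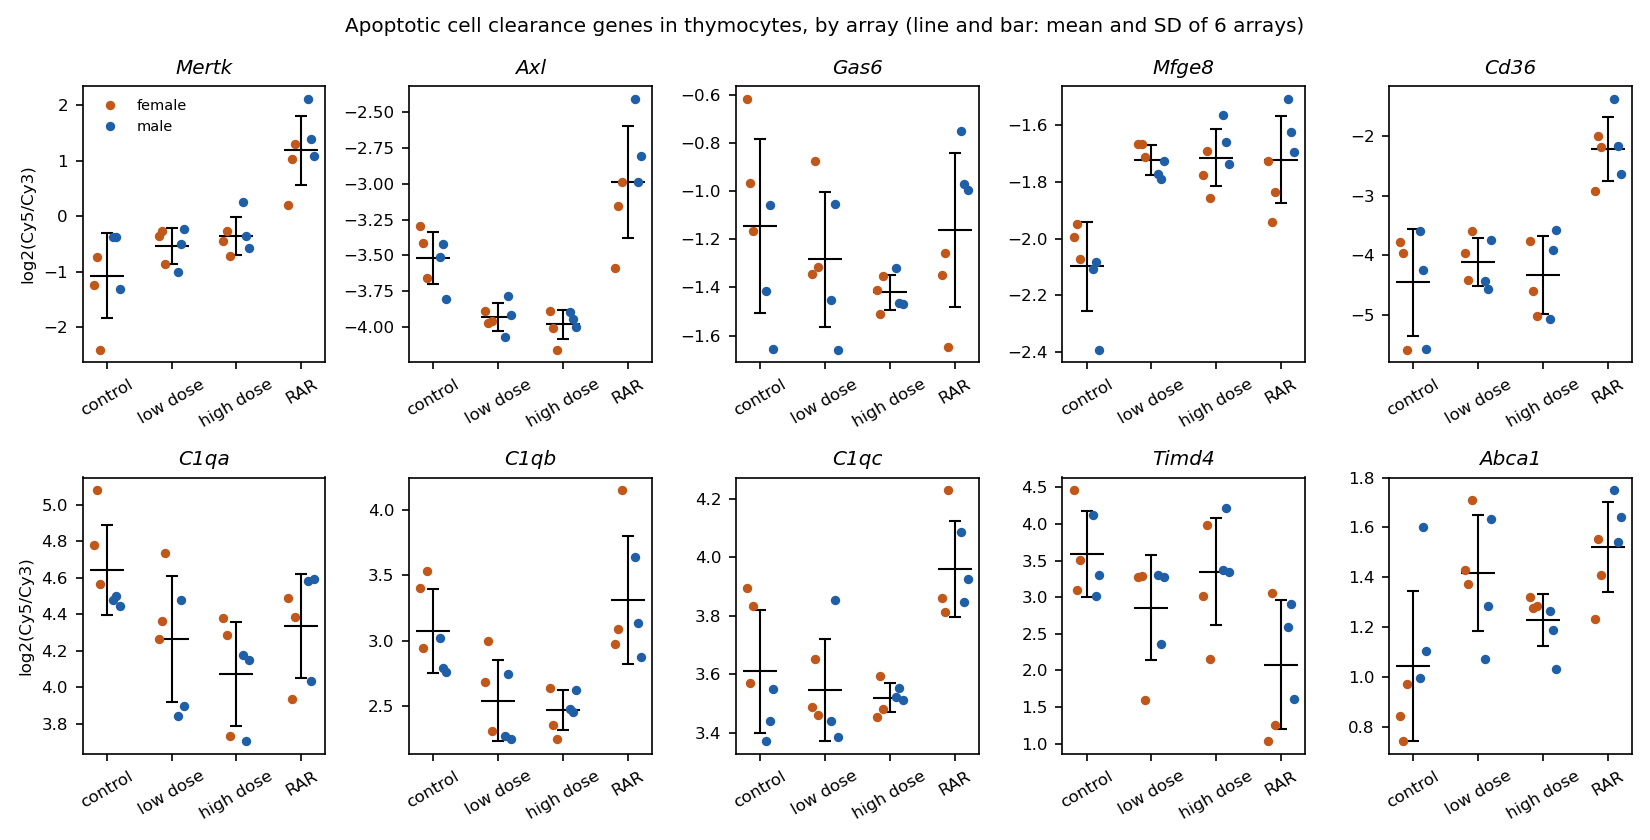
Log2(Cy5/Cy3) of the 10 clearance genes on each of 24 arrays, with females and males as separate points and the mean and SD of 6 arrays per treatment as a line and bar; each panel has its own axis. The means of Mertk, Axl, Cd36, C1qb, C1qc and Abca1 are highest in RAR thymocytes, some with ranges that overlap control. Mfge8 is lower in control than in the 3 irradiated groups, and the mean of Timd4 is lowest in RAR thymocytes.

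MERTK is the receptor tyrosine kinase through which macrophages engulf apoptotic thymocytes. The log2 ratio of Mertk was -2.40 at the lowest, -0.98 at the median and -0.37 at the highest of the 6 control arrays. The lowest was female control replicate 3, where the Cy5 signal was not well above background. That signal was well above background on the 23 other arrays, so the differences from control rest in part on 1 unmeasured value. The log2 ratio ran from -1.01 through -0.42 to -0.23 at the low dose and from -0.72 through -0.40 to 0.25 at the high dose. In RAR thymocytes it ran from 0.21 through 1.19 to 2.12. Every RAR array lay above every control array and every low dose array, and 1 high dose array (male replicate 1, at 0.25) lay above the lowest RAR array (female replicate 1, at 0.21). Mertk was 4.78-fold higher in RAR than in control thymocytes (log2 difference 2.26 ± 0.29, SE, adjusted p = 3.24e-06), 2.92-fold higher than at the high dose (1.54 ± 0.29, adjusted p = 0.000761) and 3.31-fold higher than at the low dose (1.72 ± 0.29, adjusted p = 0.000247). With normexp background and loess these differences were smaller, at 1.27, 1.01 and 1.00 in the same order, and still called. The exact permutation test within sexes gave p = 0.005 for each of these 3 differences, the smallest value its 400 splits allow (two-sided). The order of the medians was RAR, high dose, low dose and control, and the ranges of the last 3 overlapped. Against control the high dose difference was 0.71 (95% confidence interval 0.11 to 1.32, adjusted p = 0.0839) and the low dose difference 0.53 (-0.07 to 1.14, adjusted p = 0.233), neither of which was called. The high dose difference became a call without female control replicate 2 (0.90, adjusted p = 0.0297), with quantile normalization (0.83, adjusted p = 0.0374), with the Cy5 signal alone (0.73, adjusted p = 0.0277) and with array weights (0.83, adjusted p = 0.0376). It was 0.25 with normexp and loess (adjusted p = 0.165), and over all arrays left out 1 at a time it ran from 0.48 (adjusted p = 0.235) to 0.90.

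AXL is the related receptor that binds GAS6, and Axl was lower than control after the single doses, short of 1.5-fold. The log2 ratio of Axl ran from -3.81 through -3.47 to -3.30 in control, from -4.07 through -3.94 to -3.78 at the low dose and from -4.16 through -3.97 to -3.89 at the high dose. In RAR thymocytes it ran from -3.59 through -2.99 to -2.40. The high dose arrays all lay below the control arrays, the low dose arrays overlapped the control arrays at 1 end, and each RAR array lay above each array of both single doses. The 0.99 (± 0.12) log2 difference of RAR from high dose was 1.99-fold (adjusted p = 9.29e-06) and the 0.94 (± 0.12) difference from low dose was 1.92-fold (adjusted p = 1.22e-05). Against control Axl was 0.53 higher in RAR (adjusted p = 0.000974), 0.46 lower at the high dose (adjusted p = 0.00571) and 0.41 lower at the low dose (adjusted p = 0.0137), each short of 1.5-fold. With the Cy5 signal alone the RAR difference from control was 0.30, which was -0.26 relative to the median of all probes. On the ratio it became a call without female RAR replicate 1 (0.62), without male RAR replicate 2 (0.59), with normexp and loess (0.69) and with slide as a block (0.61), and with quantile normalization it was 0.24 (adjusted p = 0.0913). In order of the medians Axl stood at RAR, control, low dose and high dose, and only the ranges of RAR and control, of control and low dose, and of the 2 single doses overlapped.

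TIM-4 is a phosphatidylserine receptor of resident macrophages. On 0 of the 24 arrays did the Timd4 probe have a Cy3 signal well above background, so its log2 ratio has no measured reference and only the Cy5 signal carries information on thymocytes. That signal stood well above background for all 6 mice of each of control, low dose and high dose, and for 3 of the 6 RAR mice. It ran from 60.5 to 130.5 in control, from 51.1 to 116.4 at the low dose, from 78.7 to 148.6 at the high dose and from 38.0 to 72.9 in RAR thymocytes, before scaling between arrays. The RAR arrays and the high dose arrays did not overlap in this signal, and the RAR arrays overlapped those of control and low dose. On the log2 ratio scale Timd4 was 1.51 lower in RAR than in control thymocytes (a log2 difference of -1.51 ± 0.43, adjusted p = 0.00836) and 1.28 lower than at the high dose (-1.28 ± 0.43, adjusted p = 0.0408). With the Cy5 signal alone the differences were -0.52 (adjusted p = 0.0902) and -0.63 (adjusted p = 0.0708), and neither was called. The median of all probes moved by 0.56 and 0.32 on that scale. Relative to it Timd4 was -1.08 in RAR against control and -0.94 against high dose, values that carry no test. With slide as a block the call against control was lost (adjusted p = 0.0598), and with normexp background and loess it was -0.37, short of 1.5-fold. The call against high dose was lost, with differences from -1.04 to -1.34, on leaving out any one of female high dose replicates 1 and 2, male high dose replicates 1 and 2, female RAR replicates 1 and 3, and male RAR replicates 1 and 3.

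Of the bridging proteins, Gas6, the ligand of MERTK and AXL, was not called in any comparison. Its log2 ratio ran from -1.65 through -1.11 to -0.62 in control, from -1.66 through -1.33 to -0.88 at the low dose, from -1.51 through -1.44 to -1.32 at the high dose and from -1.65 through -1.12 to -0.75 in RAR thymocytes. All 4 ranges overlapped. The log2 difference of RAR from control was -0.015 (95% confidence interval -0.29 to 0.26, adjusted p = 0.949), from high dose 0.26 (-0.02 to 0.53, adjusted p = 0.183) and from low dose 0.12 (-0.15 to 0.40, adjusted p = 0.595).

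MFG-E8, the bridge to integrins, differed between control and irradiated thymocytes by a small and even step. The log2 ratio of Mfge8 ran from -2.39 through -2.08 to -1.95 in control, and from -1.79 through -1.72 to -1.67 at the low dose. It ran from -1.86 through -1.71 to -1.56 at the high dose and from -1.94 through -1.71 to -1.51 in RAR thymocytes. The 6 control arrays lay below all 18 irradiated arrays, and the 3 irradiated ranges overlapped. Against control Mfge8 was 1.31-fold higher at the high dose (adjusted p = 0.000277), 1.30-fold higher at the low dose (0.38 ± 0.07 on the log2 scale, adjusted p = 0.000399) and 1.30-fold higher in RAR (0.38 ± 0.07, adjusted p = 0.000136), each short of 1.5-fold. RAR differed from high dose by -0.0068 (95% confidence interval -0.15 to 0.13) and from low dose by 0.0017 (-0.14 to 0.14). With the Cy5 signal alone the difference from control was 0.11 at the high dose (adjusted p = 0.213), 0.19 at the low dose (adjusted p = 0.0315) and 0.02 in RAR (adjusted p = 0.815), where the median of all probes was itself shifted by 0.03, 0.16 and 0.56.

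Of the complement subunits, C1qb, which encodes the B chain, was lower after either single dose and higher in RAR than after either. The log2 ratio of C1qb ran from 2.76 through 2.98 to 3.53 in control, from 2.25 through 2.49 to 3.00 at the low dose, from 2.25 through 2.47 to 2.64 at the high dose and from 2.88 through 3.11 to 4.15 in RAR thymocytes. The high dose arrays lay below all control and all RAR arrays, and 1 low dose array (female replicate 2) lay above the lowest RAR array. C1qb was 1.80-fold higher in RAR than at the high dose (adjusted p = 0.00376) and 1.71-fold higher than at the low dose (0.77 ± 0.19 on the log2 scale, adjusted p = 0.00663). Against control it fell at the high dose by 0.61 on the log2 scale (adjusted p = 0.0276), was 0.53 lower at the low dose (adjusted p = 0.0572) and 0.24 higher in RAR (95% confidence interval -0.17 to 0.64). The high dose call was lost, at differences of -0.55 to -0.60, without any one of 7 arrays (female control replicates 1 and 3, male control replicate 1, female high dose replicates 2 and 3, and male high dose replicates 1 and 2), and the low dose difference became a call, at -0.61 to -0.62, without any one of 3 arrays (female control replicate 2, and replicate 2 of the low dose in either sex). The call of RAR against low dose was lost without female RAR replicates 2 and 3 (0.56, adjusted p = 0.0570), with quantile normalization (0.62, adjusted p = 0.0745) and when each group was read without its most distant value (0.47, short of 1.5-fold).

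The chains A and C are encoded next to C1qb on chromosome 4 (in the order C1qb, C1qc and C1qa on GRCm38.p6). The log2 ratio of C1qc, whose probe stood in 10 spots on every array, ran from 3.37 through 3.56 to 3.89 in control, from 3.39 through 3.47 to 3.85 at the low dose, from 3.45 through 3.52 to 3.59 at the high dose and from 3.81 through 3.89 to 4.23 in RAR. The RAR arrays lay above all high dose arrays and overlapped the others. RAR was 0.44 higher than high dose (adjusted p = 0.00226), 0.41 higher than low dose (adjusted p = 0.00331) and 0.35 higher than control (adjusted p = 0.00546), each under 1.5-fold. C1qa ran from 4.44 through 4.53 to 5.08 in control, from 3.84 through 4.32 to 4.74 at the low dose, from 3.70 through 4.16 to 4.38 at the high dose and from 3.94 through 4.44 to 4.59 in RAR. Its high dose arrays lay below all control arrays, by 0.57 on average (log2 difference -0.57, adjusted p = 0.0135), and its RAR median lay between those of control and high dose, with no call of RAR against any group. The high dose difference of C1qa, short of 1.5-fold, became a call, at -0.61 to -0.63, with 1 array left out. Any one of female control replicate 3, female high dose replicates 1 and 2, and male high dose replicates 1 and 3 sufficed. The Cy3 signal of C1qa was well above background on 14 of 24 arrays, so its ratio rests in part on an unmeasured reference. With the Cy5 signal alone all 3 subunits were called lower at the high dose (C1qa -1.06, C1qb -0.78 and C1qc -0.80) and at the low dose (-1.05, -0.64 and -0.83), where the median of all probes moved by 0.03 and 0.16. On that scale C1qc was -0.11 in RAR against control, the opposite sign to the ratio. Relative to the median of all probes all 3 subunits were lower there (C1qa -1.12, C1qb -0.25 and C1qc -0.67).

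CD36 is a scavenger receptor of macrophages, endothelium and adipocytes. Its Cy5 signal was close to background: it was well above it on 1 of 6 control arrays, 0 of 6 low dose arrays, 2 of 6 high dose arrays and 5 of 6 RAR arrays. The signal was 8.35 to 45.8 in control, 22.8 to 44.9 at the low dose and 19.1 to 46.3 at the high dose. It was 65.1, 171.4 and 51.5 in the female RAR arrays and 212.9, 140.5 and 89.7 in the male RAR arrays, each above every array of the other treatments. The log2 ratio ran from -5.59 through -4.11 to -3.59 in control, from -4.56 through -4.19 to -3.59 at the low dose, from -5.07 through -4.26 to -3.58 at the high dose and from -2.92 through -2.18 to -1.37 in RAR thymocytes. RAR exceeded control by a log2 difference of 2.24 ± 0.39 (adjusted p = 0.000126) and high dose by 2.11 ± 0.39 (adjusted p = 0.00078), and the difference from low dose was called as well (adjusted p = 0.00161). The first 2 values are set against treatments in which most arrays did not measure Cd36, so their size is uncertain, and with normexp and loess they were 0.77 and 0.68, both called. Since no low dose array measured Cd36, that difference is given as a bound: RAR was at least 2.60-fold higher than low dose, the RAR mean being set against the lowest signal well above background on each low dose array or the Cd36 signal where that was higher. The same bound was at least 2.12-fold in females, where 2 of 3 RAR arrays measured Cd36, and at least 3.18-fold in males. These bounds hold for 1 normalization of the processed signals, and the RAR mean includes the array that did not measure Cd36. Over the alternative settings the fitted log2 difference of RAR from low dose was 0.65 at the lowest, below the bound, and still called. In the other 3 treatments the ranges overlapped, and the intervals of high dose from control (-0.70 to 0.96) and of low dose from control (-0.49 to 1.17) were wide.

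**Figure D2:**
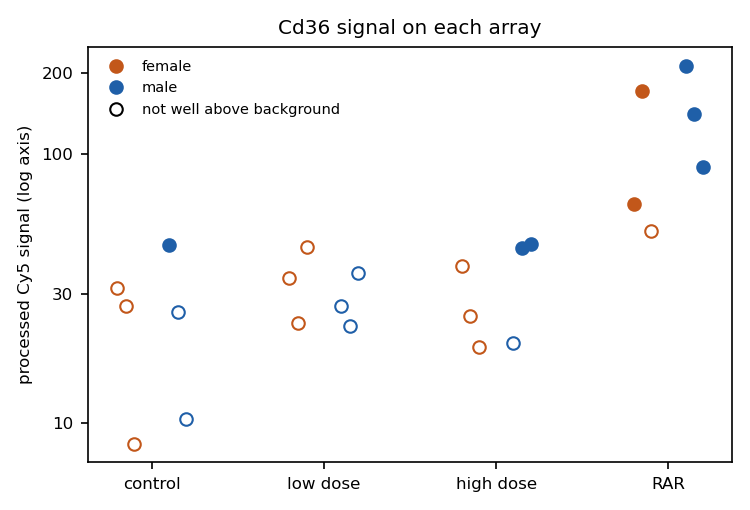
Processed Cy5 signal of Cd36 on each of 24 arrays on a log axis, with females and males in separate colors and open points for arrays where the signal was not well above background. All 6 RAR arrays, from 51.5 to 212.9, lie above the other 18 arrays, most of which are open points.

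ABCA1 exports cholesterol from the cell that engulfed. The log2 ratio of Abca1 ran from 0.74 through 0.98 to 1.60 in control, from 1.07 through 1.40 to 1.71 at the low dose, from 1.03 through 1.27 to 1.32 at the high dose and from 1.23 through 1.55 to 1.75 in RAR thymocytes. A single control array, male replicate 2, lay at 1.60, and the other 5 lay at or below 1.10, below every RAR array. RAR was 1.39-fold higher than control (0.48 ± 0.11 on the log2 scale, adjusted p = 0.00182) and low dose 1.30-fold higher than control (0.37 ± 0.11, adjusted p = 0.0205), neither reaching 1.5-fold. With the Cy5 signal alone the RAR difference from control was 0.33, which was -0.23 relative to the median of all probes. RAR differed from high dose by 0.29 (95% confidence interval 0.06 to 0.53, adjusted p = 0.0701) and from low dose by 0.10 (-0.13 to 0.34, adjusted p = 0.596).

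**Figure D3:**
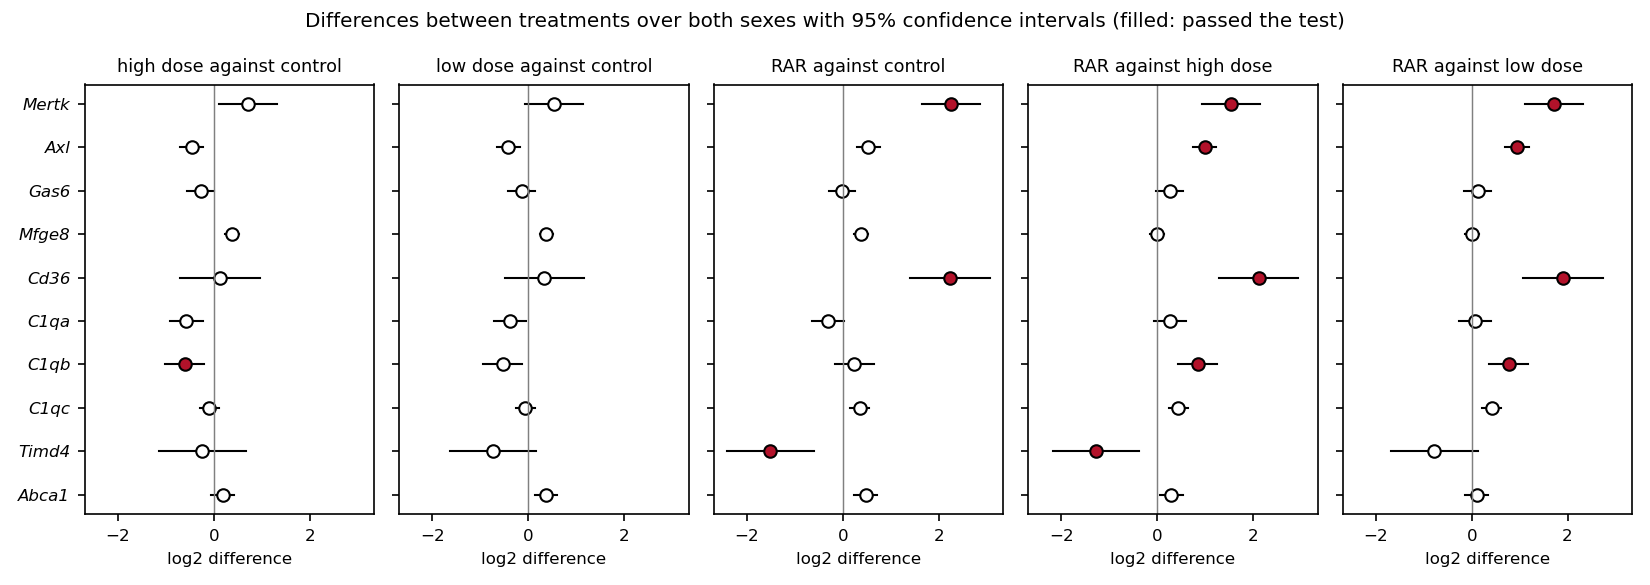
Log2 differences of the 10 members in 5 comparisons over both sexes, with 95% confidence intervals as lines and filled points where the difference was called. The filled points to the right of 0 are Mertk and Cd36 in all 3 RAR comparisons and Axl and C1qb against the single doses; those to the left are C1qb at the high dose and Timd4 in RAR against control and high dose.

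Males and females were compared by the interaction of sex and treatment. For 0 of the 10 members did the interaction pass (adjusted p from 0.699 for Gas6 to 0.971 for Cd36, with unadjusted p of 0.0111 for Gas6 and 0.0251 for Mfge8), where 2 of 55681 probes passed (0.00359%) and an analysis of variance without moderation passed 0 members as well. Between male and female RAR thymocytes limma called 0 members, against 0.438% of all probes, with 3 (Axl, Gas6 and Mfge8, each higher in males) at an unadjusted p under 0.05. Mertk rose from control to RAR by 2.30 in females (log2 difference, adjusted p = 0.000247), and the male change minus the female change was -0.09 (adjusted p = 0.987). Female control replicate 3, with a Mertk signal not well above background, enters both values. No female control array measured Cd36, which was at least 1.96-fold higher in female RAR than in female control thymocytes, so its changes in the sexes are not set against each other. For Gas6 the RAR difference from control was -0.50 in females, and the male change exceeded it by 0.97 without passing the test (adjusted p = 0.515). Axl was called in RAR against control in males (0.85) and not in females (0.21), and Mfge8 likewise (0.59 and 0.17), but their male changes minus the female changes, 0.64 and 0.42, did not pass the test (adjusted p = 0.567 and 0.534). Timd4, with no measured reference, was called lower in females (-1.91) and not in males (-1.11), and that difference of 0.80 did not pass either (adjusted p = 0.858).

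The arrays came from 3 slides, and the treatments were spread unevenly over them. RAR and high dose shared slides 1 and 2, where the differences of Mertk were 1.23 and 2.18, of Axl 0.85 and 1.28 and of C1qb 0.59 and 1.36. RAR and low dose shared slide 2 alone, where Mertk differed by 2.08, Axl by 1.19 and C1qb by 1.09. RAR and control shared slide 2 with 1 control array, from which Mertk differed by 2.08. On this slide high dose and control differed by -0.09 for Mertk and by -0.48 for C1qb. Low dose and control shared slides 2 and 3, where Mertk differed by -0.0004 and 0.51. Mertk, Axl and C1qb were higher in RAR than at either single dose on each slide that both groups shared. Within slides no difference is given for Cd36 and Timd4, which were not measured in 1 of the channels on most or all of these arrays.

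Markers of macrophages were read beside the members, of which 0 rose after either single dose. Of 16 macrophage markers, 12 rose in RAR against control (12.4% of all probes did) and 0 fell. Cd163, Vsig4, Marco and Siglec1 were not called there. Against high dose 11 rose (5.29% of probes) and against low dose 13 rose (4.78%), with 0 falling in either. After the high dose alone 6 rose (5.89%), and after the low dose alone 3 rose (5.09%) and 1 fell. Their median log2 difference was 1.59 for RAR against control, 1.12 against high dose and 1.45 against low dose. Adgre1, a surface marker of mouse macrophages, ran from -1.58 through -0.96 to -0.22 in control and from -0.48 through 0.14 to 0.31 in RAR thymocytes. Csf1r, the receptor for macrophage colony-stimulating factor, ran from -1.55 through -1.25 to -1.19 in control and from -0.34 through 0.33 to 0.55 in RAR, with no overlap. Fcgr1, the high-affinity Fc receptor, rose by 4.19 against control, where 3 of 6 arrays measured it. The summed Cy5 level of the 16 markers, as a multiple of each array's 75th percentile, was 43.1 to 57.7 in control, 56.0 to 74.3 at the low dose, 57.4 to 81.4 at the high dose and 110 to 218 in RAR. On that scale the median of all probes moved by 0.56 in log2 for RAR against control. Of the markers of tissue-resident macrophages, Cd163 was well above background on 0 of 24 arrays, and Vsig4 and Siglec1 on 9 each. Of all 16 markers, 12 were well above background on at least 12 arrays. Spi1, with 4 RAR arrays and no control or low dose array measured, was counted among the rises. Its bounds were 1.33-fold in RAR against control, 1.16-fold against low dose and 0.707-fold for high dose against control. Siglec1, counted in RAR against low dose with no low dose array measured, had a bound of 1.41-fold. The part of the macrophage markers in the differences of the members was not tested. Without female RAR replicates 2 and 3, 11 of 16 markers rose in RAR against control.

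**Figure D4:**
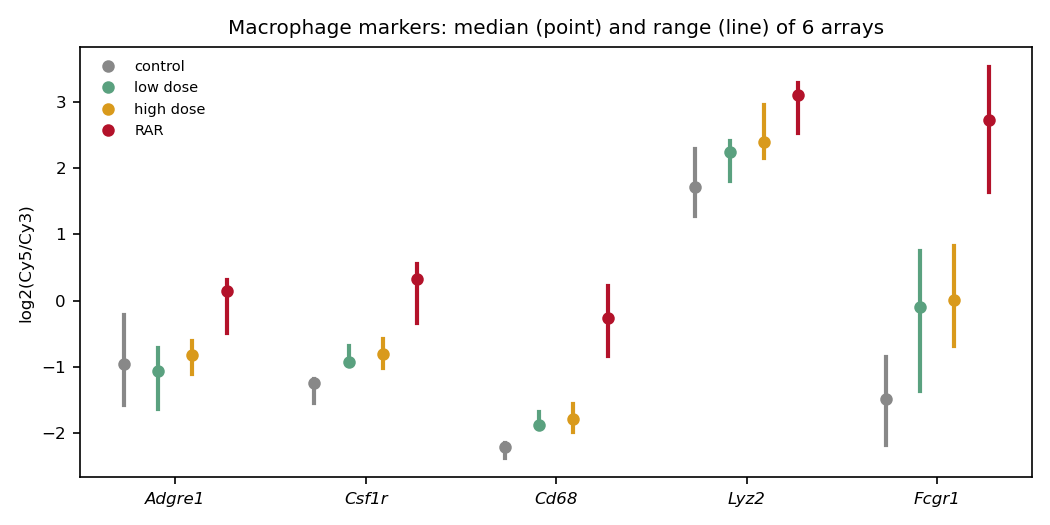
Log2(Cy5/Cy3) of 5 macrophage markers, with the median of 6 arrays as a point and their range as a line for each treatment. Csf1r, Cd68 and Fcgr1 lie higher in RAR than in any other treatment with no overlap, while the ranges of Adgre1 and Lyz2 in RAR overlap another treatment's range.

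Markers of other cells were read the same way, for RAR against control, where 12.4% of all probes rose and 13.7% fell. Neutrophil markers rose in 4 of 8 and fell in 2, with a summed level of 324.5 to 432.4 in control and 834.6 to 932.8 in RAR. Dendritic cell markers rose in 4 of 8 and fell in 0, with sums of 311 to 388.4 and 649.6 to 855.8. Thymic stroma markers rose in 2 of 7 and fell in 1, endothelial markers fell in 3 of 6, thymic epithelial markers rose in 1 of 7 and fell in 3, and adipocyte markers rose in 2 of 6 and fell in 3. Of these lists, 6 stroma, 2 endothelial, 4 thymic epithelial and 3 adipocyte markers were well above background on at least 12 arrays. The falling endothelial markers Cdh5 and Cldn5 were so on 2 and 3 arrays, and Plin1 and Psmb11, which also fell, on 4 and 8. B cell markers fell in 4 of 5, and erythroid markers rose in 1 of 5, with 4 of 5 in either list well above background on at least 12 arrays. Of 11 double-positive thymocyte markers, 2 rose and 2 fell, with a median log2 difference of 0.16, while their summed Cy5 level was 1084 to 1289 in control and 634.3 to 892.4 in RAR. The part of these lists in the differences of the members was not tested.

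A list of 53 other clearance genes was read by role. RAR thymocytes had 23 of them higher and 3 lower than control (12.4% and 13.7% of all probes), 19 higher and 0 lower than high dose (5.29% and 4.23%), and 21 higher and 0 lower than low dose (4.78% and 4.29%). After the high dose alone 13 were higher and 3 lower (5.89% and 5.63%), and after the low dose alone 12 were higher and 2 lower (5.09% and 4.83%). The median log2 difference of the list was 0.36 for RAR against control, 0.28 against high dose and 0.31 against low dose. Without female RAR replicates 2 and 3, 22 were higher in RAR than in control and 14 higher than at the high dose. Genes beyond the 3 largest rises and falls of each comparison are named here with their values already seen. Of 5 bridging proteins, all 5 rose in RAR against control: Thbs1 (thrombospondin, a bridge between CD36 and apoptotic cells) by 6.51, Lgals3 (galectin-3, a ligand of MERTK) by 3.46, C3 by 1.29, Pros1 (protein S, the other ligand of MERTK) by 1.28 and C4b by 0.85. Thbs1, measured on 2 of 6 control arrays, had also risen by 4.13 at the high dose and 4.03 at the low dose, and C3 and C4b had not been called at either dose. Against the single doses Thbs1, Lgals3, C3 and C4b rose again in RAR, and Pros1 did not reach the call.

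Of 17 other receptors, 10 rose and 1 fell in RAR against control. Msr1, the scavenger receptor A, was not well above background on any control array. It was at least 13.6-fold higher than control in RAR, at least 3.47-fold higher at the high dose and at least 3.11-fold higher at the low dose. These bounds carry no test. The limma test of the log2 ratio against control gave adjusted p = 6.8e-13, 5.12e-10 and 2e-09 for Msr1, in this order. Cd14, the co-receptor for lipopolysaccharide, rose by 4.04 in RAR, 3.30 at the high dose and 2.68 at the low dose. Cd93 rose in RAR by 2.20 against high dose. Stab2, a phosphatidylserine receptor, fell against control by 0.75 in RAR, by 0.92 at the high dose and by 0.68 at the low dose. Tyro3, the third kinase of the MERTK and AXL family, was not called in any of the 5 comparisons, with a difference of 0.13 for RAR against control. Of 6 genes of find-me signals, P2ry2, Anxa1 and Sphk1 rose in all 5 comparisons, and Cx3cr1, the fractalkine receptor, fell by 1.98 in RAR and by 1.41 at the high dose against control. Of 5 genes of eat-me signals and their opposites, Sirpa, the receptor of the don't-eat-me signal CD47, rose by 2.11 in RAR against control, and Xkr8, the caspase-activated scramblase that exposes phosphatidylserine, fell by 0.90 in RAR, by 0.71 at the high dose and by 0.77 at the low dose. None of the 5 engulfment genes (Elmo1, Dock1, Rac1, Gulp1 and Crk) was called in any comparison. Of 6 genes of phagosome digestion, Dnase2a, the lysosomal nuclease that digests corpse DNA, rose in all 5 comparisons and Ctsd in RAR against control and low dose. Of 9 genes of the lipid response, Nr1h3, the liver X receptor α that drives Abca1, rose by 2.48 in RAR against control, 1.85 against high dose and 1.98 against low dose, and Pparg rose in the same 3 comparisons, while Abcg1, the partner exporter of Abca1, differed by 0.28 from control without a call.

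**Figure D5:**
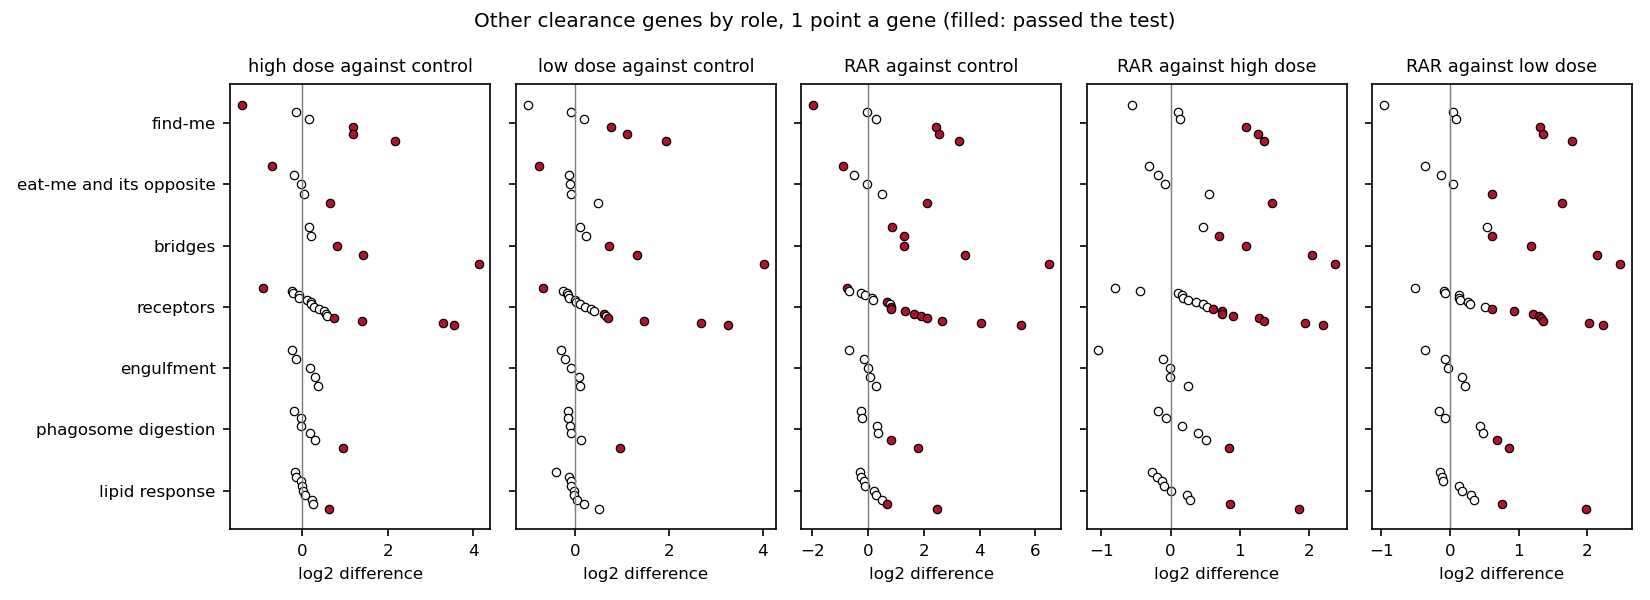
Log2 differences of 53 other clearance genes in 5 comparisons, 1 point a gene, grouped by role, with filled points where the difference was called; each panel has its own axis. In RAR against control 23 points to the right and 3 to the left are filled, and no engulfment gene is filled in any panel.

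Over the 8 group means (4 treatments in 2 sexes), the genes whose pattern was most like that of each member were read by Pearson's r among 14129 genes well above background on at least 12 arrays, as a description only. Prkcd (0.993), Chd3 (0.992) and 4930474G06Rik (0.991) were most like Mertk. Apoe (0.990), Ms4a7 (0.983) and Tctex1d2 (0.976) were most like Axl. Il18bp (0.986), Epb41l3 (0.977) and Gstp2 (0.975) were most like C1qb, and Nrros (0.979), Cd34 (0.977) and Cysltr1 (0.965) most like C1qc. Among the members other than Cd36 and Timd4, Axl and C1qc had the closest group means (r = 0.858), followed by C1qb and C1qc (0.848) and by Axl and C1qb (0.843), while Mertk and C1qb had r = 0.378. The 8 points share arrays for all genes, so no p is given.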

How the data were processed

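Thymocyte RNA of 24 mice was hybridized to 2-color Agilent mouse arrays, and each array was assigned to its group by its GEO labels (0 columns of values were left unmatched). Per the file headers, the authors deposited the output of Feature Extraction 11.5.1.1, with the intensity of each of 62976 spots in both channels, background-subtracted and dye-normalized by that software. They also deposited a table of log2 ratios. On every array 100% of its probes agreed within 0.01 with log2(Cy5/Cy3) of the processed signals. The aligner and genome build do not apply to arrays. Depth has no meaning here, and the number of arrays limits the precision.

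Log2(Cy5/Cy3) was computed from the processed signals, control spots and outlier spots (183 to 368 non-control spots an array) were left out, and spots of 1 probe were averaged. Of 55681 probes, 28026 were named by their accession through RefSeq's gene table. Means of the 8 groups (sex by treatment, 3 arrays each) were modeled in R 4.3.3 with the package limma 3.58.1, and treatment contrasts averaged the female and male differences. P-values were two-sided and adjusted over all probes by the Benjamini-Hochberg method. The fit had 16 residual degrees of freedom, with a prior of 1.63. Confidence intervals are of 95% for each probe on its own. Bounds were computed, on 1 normalization of the processed signals, where 1 side of a comparison had no array well above background and the other side had some. Other differences are as fitted, also where some arrays were not well above background. The exact permutation test used the 400 splits of arrays within sexes. The fit was tested on simulated data. Alternatives were normexp (offset 50) with loess, quantile normalization, the Cy5 signal alone (75th percentile), the deposited table, dim probes left out (32732 kept), slide or replicate block, array weights, 2 rules that drop outlying values, other size limits, an analysis of variance without moderation and each array left out in turn. One more, without female RAR replicates 2 and 3, was chosen after seeing the data.

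All 10 members were to be named, and of the 53 other clearance genes, for each comparison, up to 3 called and measured genes at either extreme of the differences. Genes most like a member were taken by Pearson's r over group means. The members, the gene lists and the tests were chosen with earlier results of these data known, and support nothing by their choice. The marker lists were of macrophages, neutrophils, dendritic cells, thymic stroma, endothelium, thymic epithelium, adipocytes, B cells, erythroid cells and double-positive thymocytes, and 1 of their genes (Ly6g) had no probe. The values of 1 macrophage marker, which stays in the counts and sums of its list, are not reported here. Promoter windows came from RefSeq (GRCm38.p6) and were searched by letters in Python.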

Additional observations from a re-analysis of the deposited data

How the results depend on the processing

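Other size limits aside, Mertk and Cd36 kept their calls and direction in all 3 RAR comparisons under every alternative that was run, and so did Axl and C1qb in RAR against high dose and Axl in RAR against low dose. C1qb lost its call in RAR against low dose under 3 of them. The numbers of members called moved as follows. For high dose against control (1 member) the count was 2 with quantile normalization, 5 with Cy5 alone, 0 with slide as a block, 2 with array weights, 4 with no minimum fold, 0 with a log2 change over 1.5 and 0 to 2 leaving out 1 array. For low dose against control (0 members) it was 1 with normexp and loess, 3 with Cy5 alone, 1 with slide as a block, 3 with no minimum fold and 0 to 1 leaving out 1 array. With no minimum fold 7 members passed for RAR against control, and with a log2 change over 1.5 there were 2 for RAR against high dose and 2 against low dose. Between male and female RAR 1 member was called with quantile normalization and 1 under either rule that drops outlying values. The interaction passed 8 members when the farthest value of each group was left out, a rule that by construction narrows the spread within groups. Leaving out 1 array gave 3 to 4 members for RAR against control, 4 to 5 against high dose and 4 against low dose.

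Of all probes, high dose, low dose and RAR against control and RAR against high and low dose called 6414, 5526, 14501, 5303 and 5050. The same 5 counts were 2903, 2356, 7221, 2363 and 2513 with normexp and loess, and 807, 634, 2924, 471 and 469 with a log2 change over 1.5. Without RAR against control they were 13522, 11670, 12680 and 12136 with the farthest value left out, 12477, 10781, 11557 and 10724 with a value over 1 log2 unit away left out, and 13286, 12118, 12151 and 11880 with no minimum fold. Cy5 alone called 27271, 12060 and 9516 probes in the 3 RAR comparisons, and slide as a block called 3324 for high dose against control and 3225 for RAR against low dose. Male against female RAR (244) became 385 with quantile normalization, 1806 with Cy5 alone, 10358 with the farthest value left out, 5755 with a value over 1 log2 unit away left out and 187 to 504 leaving out 1 array. The interaction (2) became 23 with normexp and loess, 1 with quantile normalization, 7 with Cy5 alone, 0 with dim probes left out, 1 with slide as a block, 1 with a replicate block, 33572 and 9688 under the rules that drop outlying values, 53 without female RAR replicates 2 and 3 and 0 to 7 leaving out 1 array. The causes were not tested.

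Some log2 differences changed sign, none of which had been called. RAR against control did so for Gas6 (0.15 with normexp and loess, 0.075 with quantile normalization, 0.012 with array weights, 0.16 with the farthest value left out, 0.020 without female RAR replicates 2 and 3, -0.085 to 0.064 leaving out 1 array), C1qc (-0.11 with Cy5 alone) and C1qb (-0.021 with quantile normalization, -0.10 with the farthest value left out). RAR against low dose did so for Mfge8 (-0.17 with Cy5 alone, -0.0024 with normexp and loess, -0.049 with quantile normalization, -0.049 with the farthest value left out, -0.018 with slide as a block, -0.025 to 0.028 leaving out 1 array), Abca1 (-0.010 with Cy5 alone) and Gas6 (-0.044 with slide as a block). RAR against high dose did so for Mfge8 (0.047 without female RAR replicates 2 and 3, -0.034 to 0.020 leaving out 1 array). Against control, Cd36 did so at the high dose (-0.39 under either rule that drops outlying values, -0.16 to 0.35 leaving out 1 array) and at the low dose (-0.25 and -0.23), and Timd4 at the high dose (0.10 with Cy5 alone) and at the low dose (0.058 with the farthest value left out).

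Replicate numbers did not pair the arrays: deviations of same-numbered arrays of different groups correlated with r from -0.164 to 0.222 (median -0.0036), over 0.1 in 4 of 84 pairs, and 6 of 24 arrays agreed best with their own number. The replicate block left all 50 results of single members with the same direction and call, and called 1, 0, 3, 5 and 4 members in the 5 treatment comparisons. Each member had 1 probe, so another choice of probe gives no other value. Limits of these data include the signal over background of Cd36 (8 of 24 arrays in Cy5), of Timd4 (0 of 24 in Cy3) and of C1qa (14 of 24 in Cy3). Mertk was well above background on 23 of 24 arrays in Cy5, all but 1 control array. The 3 mice a group and the uneven spread of treatments over slides are further limits.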
